A study of Enchytraeus albidus with 42 samples.

Results

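The metal library of the Enchytraeus albidus microarray comprised 345 of the 1035 transcripts on the array (33.3%). Its members were all sequences whose name begins with the prefix Ealb_Met_, whatever their signal. Each name gives the clone's plate, well and sequencing primer, so that P7_C1 is the clone in well C1 of plate P7. The library is a cDNA collection enriched for transcripts that respond to metals, and it was added when the array of this species was enlarged. The other 690 transcripts were 198 of a pesticide library, 171 assembled contigs and 321 earlier clones. The members came from 10 plates with 29 to 44 members each, 303 read with the SP6 primer and 42 with the T7 primer. Every member was printed as 1 probe on 15 spots of an array.

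E. albidus is a small white annelid (a potworm) that lives in the upper soil and is kept as a test species for soil contaminants. Adult worms were held for 2 days in soil spiked with the insecticide dimethoate, the herbicide atrazine or the fungicide carbendazim. Each pesticide was given at the concentrations that reduce reproduction by 10, 20, 50 and 90% (EC10, EC20, EC50 and EC90). Dimethoate groups received 0.1, 0.5, 2 and 25 mg/kg, atrazine groups 0.2, 0.5, 3 and 50 mg/kg, and carbendazim groups 0.05, 0.1, 0.5 and 3 mg/kg. The solvent control soil received the acetone in which atrazine and carbendazim were dissolved, and the water control soil received neither pesticide nor acetone. Each of these 14 groups had 3 vessels of 25 g soil, and each vessel gave 1 array. The sample descriptions state 15 worms per vessel and the methods 10. Dimethoate groups were set against the water control, and atrazine and carbendazim groups against the solvent control. The comparisons ask which transcripts change 2 days after the onset of an exposure that lowers reproduction, and here how far the metal library is among them.

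Dimethoate is an organophosphate that inhibits acetylcholinesterase, the enzyme that ends cholinergic signalling. Atrazine blocks photosynthetic electron transport in plants. Carbendazim is a benzimidazole that binds beta tubulin and hinders the assembly of microtubules. Cells that meet metals or other stressors commonly change the transcripts of chaperones such as HSP90, which fold proteins, of proteases and their inhibitors, and of mitochondrial and cytoskeletal proteins. RNA was extracted from whole bodies of pooled worms, so that fewer cells of a type and less RNA per cell cannot be told apart.

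A protein name was found for 107 members (31.0%), against 118 of the 690 other transcripts (17.1%). These names come from a list of transcripts that the study had selected as changed on these same arrays, so that counts of named members are not independent evidence of change. A name rests on sequence similarity and not on the characterised worm protein. Among the named members, 29 belonged to muscle and the cytoskeleton, 12 to the ribosome and translation, 10 to the respiratory chain and ATP synthase, 6 to chaperones, 6 to proteolysis and its inhibitors and 2 to extracellular hemoglobin. A further 42 names fell in none of these lists, and 238 members had no name.

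Values below are log2 signals, averaged over the spots of a transcript and shifted by the median of each array. They are compared between groups within a transcript, and only the library as a whole is set beside the rest of the array by level. A transcript was called when its adjusted p was under 0.05 in limma, a moderated linear model fitted to all 1035 transcripts, with Benjamini-Hochberg adjustment over all of them. SE is the standard error of a log2 change. The p-values measure the spread between vessels of a group, and 3 arrays per group limit the precision.

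Both arrays of 1 scan stood apart from the rest. These were the dimethoate arrays EC10 replicate 1 and EC20 replicate 2. Their members deviated from the group means with an SD of 0.88 and 0.84, while the other arrays lay between 0.20 and 0.58. Over 1035 transcripts the deviations of these arrays correlated with r = 0.84. Replicate 2 of the solvent control deviated in a similar direction (r = 0.48 with their mean), and the next array, water control 1, did so less (r = 0.28). Every array of the fit shares 1 estimate of the spread, so the results are given over all 42 arrays, over 40 arrays without that scan, and over 39 arrays without solvent control 2 as well. Both omissions leave other arrays untouched, but they leave 2 arrays each in dimethoate EC10, dimethoate EC20 and, over 39 arrays, the solvent control. Correlations between the deviations of transcripts below take in all 42 arrays, that scan included.

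The metal library gave signals as readily as the rest of the array. Between 75.9% and 94.8% of its members were well above background on an array, against 73.5% to 94.3% of the other transcripts. The median signal of the members was above that of the others on 41 of 42 arrays, by -0.04 to 0.56. On all 42 arrays, 241 members (69.9%) were well above background, against 474 others (68.7%), and 17 members (4.93%) on none, against 32 others (4.64%). The group means of a member spanned a median of 1.04 on the log2 scale, against 1.01 for the others. A span above 2 was found for 23 members (6.67%) and 52 others (7.54%). The spread within groups was also alike, with a median residual SD of 0.42 for members and 0.41 for others.

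Over the 14 contrasts, 23 members (6.67%) were called at least once, against 62 of the other transcripts (8.99%). Of these 23 members, 8 were called in more than 1 contrast and 6 carried a protein name. In 9 contrasts no member was called. Plate P9 held 5 of the called members and plate P2 held 4, whereas none of the 44 members of plate P3 was called. The median change of the members stayed between -0.12 and 0.12 in all contrasts, and that of the others between -0.03 and 0.09. The lowest median of the members was at atrazine EC10, where 33.6% of them were higher than in the solvent control, against 50.4% of the others. At an unadjusted p under 0.05 the members passed more often than the others in most contrasts with the solvent control. Those contrasts share its arrays, and the shares are given below.

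**Figure D1:**
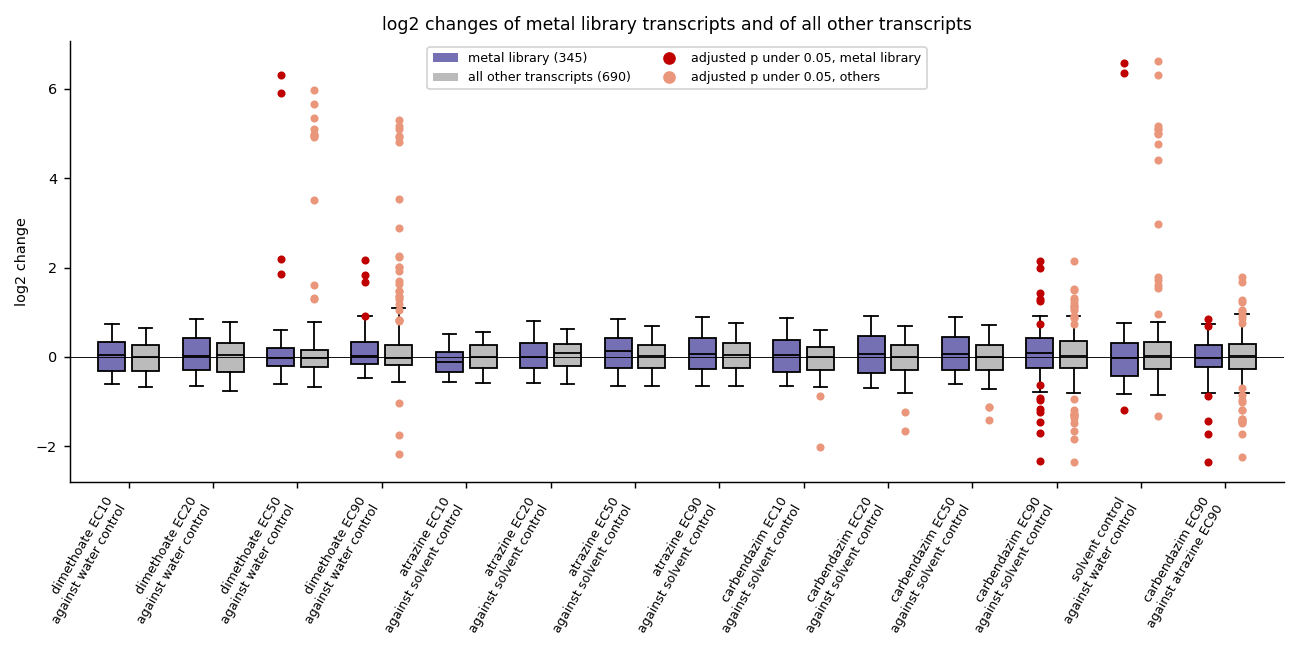
log2 change of the 345 metal library transcripts (purple) and the 690 other transcripts (grey) in each contrast over 42 arrays. Boxes span the quartiles with the median as a line, whiskers the 5th to 95th percentile, and dots are transcripts called at adjusted p under 0.05; the boxes of both sets lie around 0, and called members appear in 5 of the 14 contrasts.

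The direction of small shifts depended on the scaling. When arrays were scaled by their 75th percentile instead of the median array, the median change of all 1035 transcripts moved to 0.21 at atrazine EC20, 0.29 at EC50 and 0.21 at EC90. It moved to 0.14, 0.22 and 0.18 at carbendazim EC10, EC20 and EC50, to -0.25 at dimethoate EC50 and to -0.28 in the solvent control against the water control. Changes below are relative to the median array.

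In dimethoate, members were called at the upper concentrations, all of them higher than in the water control. None of the 345 members was called at EC10 or at EC20, where 0% of all transcripts were. At an unadjusted p under 0.05, 26 members passed at EC10 (6.96% of all transcripts did) and 50 at EC20 (13% of all). The t-test of the study's methods gave 10 members at EC10 (2.8% of all transcripts) and 11 at EC20 (1.93% of all) at that threshold, and 0 after adjustment at both concentrations. Over 40 arrays there were again 0 members at EC10 and EC20 (0% of all transcripts). At EC50, 4 members were called, all higher (1.16%, against 1.55% of all transcripts). At EC90, 4 were called, all higher (1.16%, against 3.09% of all). Over 40 arrays these became 6 at EC50 (3.09% of all transcripts) and 13 at EC90 (5.31% of all), again all higher, and they included each of the members called over 42. On 1 slide lay all arrays of EC50 and EC90 with 1 of the water control arrays (replicate 3).

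Clones P7_C1 and P7_G8, which carry no name, were the most changed members at dimethoate EC50. P7_G8 (Ealb_Met_P7_G8_T7_2175288) read 13.51, 11.71 and 11.93 at EC50, against 10.13, 4.67 and 3.42 in the water control. The groups did not overlap, but the water control arrays themselves spanned more than 6 log2 units, and 2 of these 3 arrays were well above background. The change was 6.31 ± 1.44 (SE), or 79.3-fold, with an adjusted p of 0.0135. P7_C1 (Ealb_Met_P7_C1_SP6_2090602) read 14.56, 12.46 and 14.12, against 11.42, 6.60 and 5.40, a change of 5.91 with an adjusted p of 0.0242. Both calls rest on the low water controls: without water control 2, without water control 3 or without dimethoate EC50 1 each of them was lost, and P7_C1 also without dimethoate EC50 3. Fitted with the slide as a block they were kept, at adjusted p 0.00395 for P7_G8 and 0.0143 for P7_C1. That fit leans on water control 3, the only water array on the slide of EC50 and the lowest of both clones. It is therefore no independent support for the calls.

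The same clones had the widest spans of group means in the whole library. P7_C1 spanned 6.86, atrazine EC10 averaging 14.67 and the water control 7.80, and its arrays reached 5.40 at the lowest and 15.24 at the highest. P7_G8 spanned 6.78 and P7_C5 (Ealb_Met_P7_C5_SP6_2090632) 4.56. Variation within groups was just as wide: the SD of P7_C1 was 0.07 in the solvent control and 3.59 at dimethoate EC10. The deviations of P7_C1 from its group means correlated with those of P7_C5 (r = 0.92), of P7_G8 (0.91) and of the non-member Contig8 (0.995) over the 42 arrays, which all share. P7_G8 lay closest to Contig119 (r = 0.96). Their deviations thus ran together from vessel to vessel, and whether their probes share sequence was not tested.

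**Figure D2:**
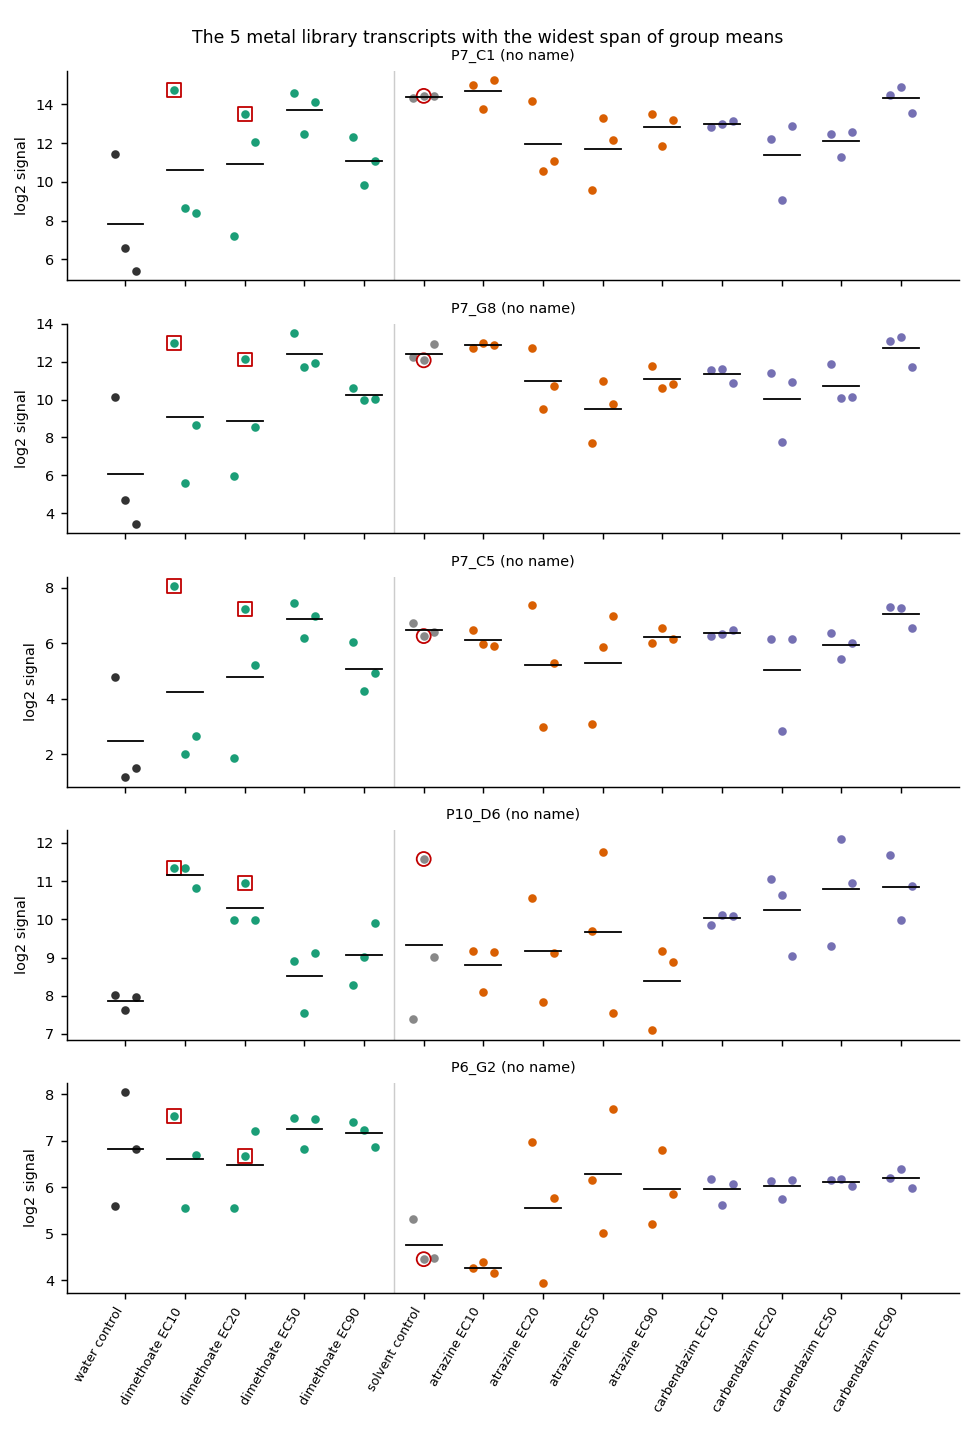
Normalised log2 signal of the 5 members with the widest span of group means, by group in order of concentration, with 1 dot per array and a line at the group mean. Squares mark the scan that stood apart and the circle solvent control 2; the arrays of P7_C1, P7_G8 and P7_C5 spread over several log2 units within the water control and dimethoate EC10 and EC20.

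The solvent control was set against the water control in the same manner, and P7_C1 and P7_G8 again led. In this contrast 3 members were called, 2 higher and 1 lower (0.87%, against 1.84% of all transcripts). P7_C1 read 14.31, 14.43 and 14.42 in the solvent control, against the 11.42, 6.60 and 5.40 of the water control, a change of 6.58 (adjusted p = 0.00847). P7_G8 read 12.23, 12.07 and 12.96, against 10.13, 4.67 and 3.42, a change of 6.35 (adjusted p = 0.00938). The solvent control arrays lay within 1 log2 unit of each other for both, above all water controls. These calls too were lost without water control 2 or water control 3, and with the slide as a block (adjusted p 0.51 and 0.318). The third was P9_H1, at 2.86, 2.37 and 3.51 in the solvent control, against 3.90, 4.28 and 4.12 in the water control (adjusted p = 0.0251). It was well above background on none of the solvent arrays and on all 3 water arrays, so the water control was at least 1.02-fold higher. Here a dim probe's group was set at no less than the lowest signal that was well above background on its arrays. The solvent and water controls share no slide, so acetone and slide cannot be told apart. Over 40 arrays 16 members were called (4.93% of all transcripts) and over 39 arrays 4 (2.13%).

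Other members called at dimethoate EC50 were P6_D3 and P8_C2. P6_D3, similar to the cysteine-rich repeat protein crim1, a membrane protein of the secretory path in vertebrates, read 12.22, 11.83 and 12.18 at EC50, against 10.34, 9.91 and 9.38 in the water control. All treated arrays lay above all controls, a 4.59-fold change of 2.20 ± 0.55 (adjusted p = 0.0265). The call of P6_D3 held in 1 of 6 omissions of a single array (water control 1), and with the slide as a block the adjusted p was 0.198. The transcript was also high in the solvent control (11.58, 11.97 and 12.07). At carbendazim EC50 it read 10.29, 9.58 and 9.54, a change of -2.07 against the solvent control with an adjusted p of 0.141. P8_C2 was well above background on 3 of 3 arrays at EC50 and 2 of 3 at EC90, but on none in the water control. It averaged 3.59 at EC50 and 3.41 at EC90, against 1.74 in the water control (adjusted p = 0.0198 and 0.0234). Under the slide block these p-values were 0.306 and 0.291, and without water control 2 or 3 both calls were lost.

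At dimethoate EC90 a digestive protease led. Chymotrypsinogen b1 (P2_F11), the precursor of an intestinal serine protease, read 3.85, 2.87 and 3.92 at EC90, against 1.51, 1.15 and 1.46 in the water control (adjusted p = 0.000451). It was well above background on 2 of the treated arrays and on no array of any other group, so no fold is given. The call held in all 6 omissions of a single array, with an adjusted p of at most 0.0081. With the slide as a block the adjusted p was 0.0661, and 0.04 over 40 arrays. Along the series its group means were 1.51, 1.70, 2.20 and 3.54 from EC10 to EC90.

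P1_C8 (Ealb_Met_P1_C8_SP6_2090198), without a name, read 13.59, 13.50 and 13.82 at dimethoate EC90, against 12.10, 11.94 and 11.40 in the water control. The groups were well separated, with a change of 1.82 ± 0.43, or 3.54-fold (adjusted p = 0.00813). Over 40 arrays the adjusted p was 6.76e-06, and 0.000355 with the slide as a block besides. Over 42 arrays the block gave 0.0539, and the call was lost without water control 3 or without dimethoate EC90 3. Its deviations followed those of ribosomal protein l19, a member (r = 0.88), and of ribosomal protein l10a, a non-member (r = 0.86), with the scan that stood apart among the 42 arrays. Ribosomal protein l19 read 12.99 and 13.09 on that scan, against 11.10 to 11.27 on the other arrays of those groups. Whether the correlations hold without the scan was not tested. At carbendazim EC90 P1_C8 also stood high, at 13.59, 13.48 and 13.60, against 12.59, 12.99 and 13.18 in the solvent control. The fourth call was P6_F7, which averaged 3.61 at EC90, against 2.69 in the water control (adjusted p = 0.0371), well above background on 2 and 0 arrays. The call of P6_F7 was lost without water control 1 or 3 and without dimethoate EC90 1 or 3.

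The 13 members called at dimethoate EC90 over 40 arrays included 7 with a name. Among these were 3 of the 29 members of the muscle and cytoskeleton list (10.3%, beside 5.31% of all transcripts). Names came from transcripts selected as changed on these arrays, so this share is no independent evidence. The cytoplasmic intermediate filament protein (P5_C11), which belongs to the filaments that give cells mechanical strength, read 7.13, 6.77 and 6.96, against 5.86, 6.53 and 6.35 in the water control. No treated array fell below a control (change 0.71, adjusted p = 0.0106 over 40 arrays and 0.785 over 42). Calponin transgelin (P8_D12), an actin-binding muscle protein, read 7.27, 6.72 and 7.26, against 5.77, 5.76 and 5.61, a change of 1.37 (adjusted p = 0.0225 over 40 arrays and 0.0566 over 42). The B chain of a giant hemoglobin (P6_E11), a subunit of the oxygen carrier that annelids dissolve in their blood, read 5.21, 4.81 and 5.36, against 4.59, 4.67 and 4.08. Its change of 0.68 gave adjusted p 0.0345 over 40 arrays and 0.0907 over 42. With the slide as a block as well, over 40 arrays, the adjusted p was 0.0243 for the hemoglobin chain, 0.223 for calponin transgelin and 0.233 for the intermediate filament protein.

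Of the 6 chaperones HSP90 (P8_C12) changed most at dimethoate EC90, at 6.14, 5.89 and 6.09, against 5.16, 5.33 and 5.24 in the water control. These arrays did not overlap, but the change of 0.80 was not called (adjusted p = 0.0654 over 40 arrays). All 6 chaperones were higher than in the water control at EC90 (median change 0.31, beside -0.01 for all transcripts). So were 53.9% of the members and 46.5% of the other transcripts. With normexp background correction 5 of 6 chaperones were higher, and with quantile normalization 4 of 6. Among the 6, heat shock protein 60 (P8_A3) was well above background on no array of either group. Its arrays overlapped, at 1.36, 1.62 and 2.30, against 1.47, 1.20 and 1.60. None of the 6 was called by limma over 42 or 40 arrays. Over 39 arrays 1 of the 6 was, higher than in the water control (14 of 345 members and 46 of 690 others were called). Over 42 arrays 2 passed at an unadjusted p of 0.05 (9.86% of all transcripts did). By the methods' t-test 3 passed so (16.7% of all), with 0 after adjustment. Of the 10 respiratory chain members 0 were higher at EC90 (median -0.13), under each of the other scalings too. None of the 10 was called, 0 passed at an unadjusted p of 0.05, and 2 did by the t-test, with 0 after adjustment.

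At the lower concentrations of dimethoate the members with the smallest p were not called. P10_D6 (Ealb_Met_P10_D6_SP6_2091204), without a name, read 11.33, 11.35 and 10.81 at EC10, against 8.01, 7.63 and 7.96 in the water control. The groups were 3.29 ± 0.88 apart, or 9.8-fold, yet the adjusted p was 0.54. Among the 3 arrays of other groups this clone varied widely, as in the solvent control with 7.40, 11.58 and 9.00. At EC20 the smallest p was that of troponin t (P8_D8), part of the calcium switch of striated muscle, with a change of -0.88 (adjusted p = 0.355).

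Atrazine called no member at any concentration over 42 arrays (0% of all transcripts in each contrast). At an unadjusted p under 0.05 there were 7 members at EC10 (2.71% of all transcripts), 22 at EC20 (5.02%), 56 at EC50 (10.4%) and 40 at EC90 (8.31%). By the methods' t-test 14 members passed that threshold at EC10 (5.8% of all transcripts), 8 at EC20 (2.8%), 16 at EC50 (3.57%) and 30 at EC90 (7.54%), with 0 after adjustment at each concentration. Over 40 arrays 0 members were called at EC10 (0.0966% of all transcripts), EC20 (0.193%) and EC50 (0%), and 12 at EC90, 5 higher and 7 lower (2.51% of all). Over 39 arrays none of these 12 remained (0.0966% of all transcripts). At EC10, EC20 and EC90 the members that passed in limma were 2.03%, 6.38% and 11.6% of the library. Of the other transcripts 3.04%, 4.35% and 6.67% did. At EC50 the 56 members were 16.2% of the library, against 7.54% of the other transcripts, with 34 higher and 22 lower. With scaling by the 75th percentile 57 of 62 such members were higher (91.9%).

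The named members nearest to a call in atrazine belonged to different functions. At EC10 purine nucleoside phosphorylase (P5_C2), an enzyme of purine salvage, read 6.58, 7.53 and 7.33, against 5.73, 5.58 and 6.87 in the solvent control. The groups overlapped, and the change of 1.09 had an adjusted p of 0.874. At EC50 the cytochrome c oxidase subunit via polypeptide 1 (P4_G4), part of the last complex of the respiratory chain, read 6.59, 5.75 and 6.33, against 5.41, 5.10 and 5.54. All treated arrays lay above the controls, but the change of 0.87 had an adjusted p of 0.269. At EC90 the sec61 subunit beta (P10_C3), of the channel that moves proteins into the endoplasmic reticulum, read 6.23, 6.00 and 5.98, against 5.66, 5.39 and 5.18 (change 0.66, adjusted p = 0.202). This transcript was called over 40 arrays (adjusted p = 0.0401) and not over 39 (0.437).

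P9_G8 (Ealb_Met_P9_G8_SP6_2090745), without a name, was the one member that the slide block called at atrazine EC20 over 42 arrays. It read 5.54, 5.44 and 5.84 at EC20, against 4.57, 3.04 and 5.06 in the solvent control. The change was 1.38 with an adjusted p of 0.312, and with the slide as a block 2.19 with an adjusted p of 0.0109. Over 40 arrays with the slide as a block 19 members were called at EC20 (3.77% of all transcripts), none of which was called over 40 arrays without the block. Solvent control 2, the only solvent array on a slide with atrazine EC20, was the lowest P9_G8 array of its group. Of the 3 solvent arrays 2 were well above background. The linker l4 subunit of extracellular hemoglobin (P2_E3), which ties globin chains into the giant complex, read 7.17, 8.49 and 9.22 at EC50, against 10.10, 10.56 and 10.16. It changed by -1.98 at EC50 and -1.70 at EC20 and was called at neither.

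Carbendazim gave the most calls of the library, at the highest concentration. At EC10, EC20 and EC50 no member was called over 42 arrays, against 0.193%, 0.193% and 0.29% of all transcripts. At an unadjusted p under 0.05 there were 57 members at EC10 (10.6% of all transcripts), 52 at EC20 (10.8%) and 51 at EC50 (10.1%). These were 16.5%, 15.1% and 14.8% of the library, against 7.68%, 8.7% and 7.83% of the other transcripts. At EC90, 64 members passed (18.6%, against 15.9% of the others and 16.8% of all). By the methods' t-test 52 members passed that threshold at EC10 (11.2% of all transcripts), 65 at EC20 (14.3%) and 65 at EC50 (15.7%), with 2, 2 and 0 after adjustment. At EC90, 14 members were called, 6 higher and 8 lower (4.06%, against 3.62% of the other transcripts and 3.77% of all). Over 40 arrays there were 20 members at EC10 (4.35% of all transcripts), 24 at EC20 (5.7%), 33 at EC50 (6.67%) and 53 at EC90 (13.9%). Over 39 arrays 2 remained at EC10 (0.87% of all), 2 at EC20 (1.06%), 1 at EC50 (0.58%) and 27 of the 53 at EC90, where 29 were called (7.92% of all). Most calls below EC90 were thus lost without solvent control 2. All arrays of EC10 and of EC20 lay on the same slide, which held no solvent control. Carbendazim and slide therefore cannot be told apart when these groups are set against the solvent control.

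**Figure D3:**
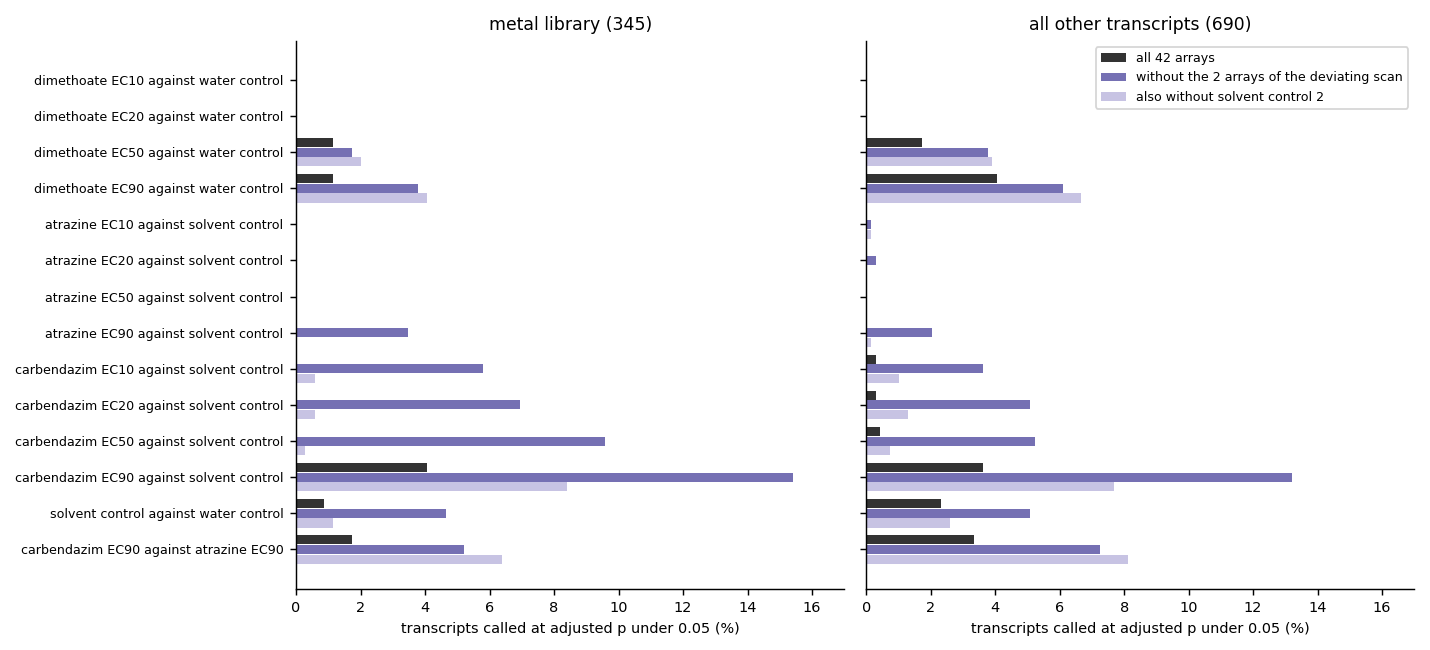
Share of transcripts called at adjusted p under 0.05 in each contrast, for the 345 members (left) and the 690 other transcripts (right). Black bars are all 42 arrays, dark purple bars 40 arrays without the scan that stood apart and light purple bars 39 arrays. The bars of carbendazim EC10 to EC50 shrink to near 0 without solvent control 2. Those of EC90 shrink too but remain, from 53 members and 91 others over 40 arrays to 29 and 53 over 39.

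Peptidase inhibitor 16 (P2_C11), a secreted protein of the cysteine-rich secretory family in vertebrates, was the most lowered member at carbendazim EC90. It read 4.27, 4.69 and 4.54, against 6.73, 6.55 and 7.18 in the solvent control. It was well above background on 2 of the 3 treated arrays and on all controls. Every treated array lay more than 1 log2 unit below every control, a 5.0-fold change of -2.32 ± 0.43 (adjusted p = 0.000999). At EC10, EC20 and EC50 its arrays lay between 6.54 and 7.36, so that the lower level was seen at the highest concentration only. It was also lower than at atrazine EC90 (7.18, 6.57 and 6.80), by 2.35 on the log2 scale (adjusted p = 0.00231). The remaining low readings were those of the scan that stood apart, 5.11 and 4.67. The deviations of this transcript followed those of the cytoplasmic intermediate filament protein (r = 0.94), with the scan that stood apart among the 42 arrays. In all, 13 transcripts had an r above 0.9 with it. Whether these correlations hold without the scan was not tested. The call held in all 6 omissions and reached 8.72e-10 over 40 arrays. With the slide as a block the adjusted p was 0.124, and 0.000123 over 40 arrays, and within the shared slide the difference was -2.33.

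P2_A2 (Ealb_Met_P2_A2_SP6_2090242), without a name, had the smallest adjusted p of the library in any contrast over 42 arrays. It read 11.81, 12.27 and 11.61 at carbendazim EC90, against 13.67, 13.30 and 13.13 in the solvent control. The arrays did not overlap, and the change was -1.47 ± 0.22, a 2.77-fold lower level (adjusted p = 0.000112). The call held in all 6 omissions and with the slide as a block (-1.96, adjusted p = 0.00139). At EC10, EC20 and EC50 the arrays of P2_A2 lay between 12.61 and 13.13, and at atrazine EC90 between 12.75 and 12.80. The level at carbendazim EC90 was lower than at atrazine EC90 by 0.88 on the log2 scale (adjusted p = 0.0184).

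Other members lowered at carbendazim EC90 had no name. P4_G7 read 6.50, 7.67 and 7.20, against 8.83, 7.95 and 8.32 in the solvent control, a change of -1.24 (adjusted p = 0.0229). Its group means were 8.39, 8.70, 7.67 and 7.12 from EC10 to EC90. P9_D12 read 11.01, 10.34 and 8.89, against 12.18, 12.02 and 11.16, a change of -1.71 (adjusted p = 0.0212). No treated array of either clone reached a control array, although replicate 3 of P9_D12 lay apart from its group and the call was lost without it. P9_D12 deviated with Contig64, named as actin (r = 0.95), the globular protein of muscle thin filaments. P4_C8, P9_C4, P2_B7 and P9_B10 changed by -1.17, -0.97, -0.91 and -0.64, with adjusted p 0.0405, 0.0228, 0.0237 and 0.0489. P2_B7 was the second call that held with the slide as a block (adjusted p = 0.0394).

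Of the 6 members raised at carbendazim EC90, P1_C3 and P5_E5 changed most. P1_C3 (Ealb_Met_P1_C3_SP6_2090161) read 6.54, 6.40 and 6.33, against 5.36, 4.15 and 3.77 in the solvent control. All treated arrays were well above background and 1 of the control arrays was, with a change of 1.99 (adjusted p = 0.00372). The call held in all 6 omissions, with an adjusted p of at most 0.0388, but not with the slide as a block (0.697). P5_E5 read 7.70, 9.92 and 8.15, against 6.77, 5.40 and 7.16, a change of 2.15 (adjusted p = 0.0235). Its call was lost without solvent control 2 or without the second treated array, the farthest of each group. P6_D6 changed by 1.26 (adjusted p = 0.0229), and its deviations followed those of P1_C3 (r = 0.82). P5_G6 read 6.92, 7.43 and 6.84, against 6.25, 6.44 and 6.29, a change of 0.73 (adjusted p = 0.023).

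Named members were also among the raised, though both were dim. The ovulatory protein-2 precursor (P9_A11), named after a secreted protein of the reproductive tract, read 4.58, 5.14 and 4.46 at carbendazim EC90, against 3.40, 3.93 and 2.56 in the solvent control. It was well above background on 2 treated arrays and on no control array, and at least 1.57-fold higher at EC90 (adjusted p = 0.0343). Its group means were 3.71, 3.87, 4.00 and 4.73 from EC10 to EC90. Transketolase (P1_G6), an enzyme of the pentose phosphate pathway, averaged 3.26 at EC90, against 1.96 in the solvent control (adjusted p = 0.0229). It was well above background on 1 treated array and on none of the controls, and with another background correction its change was -0.06 (adjusted p = 0.763).

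**Figure D4:**
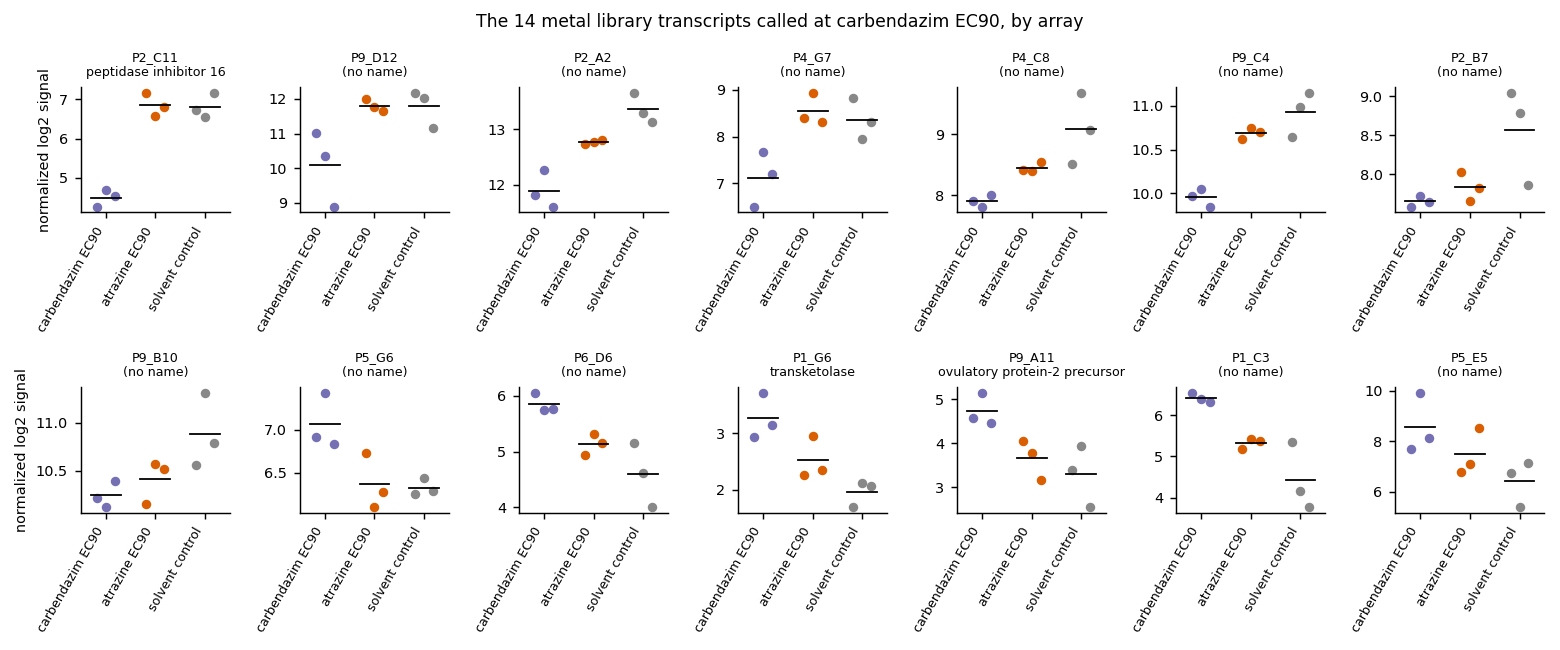
Normalised log2 signal of the 14 members called at carbendazim EC90, for carbendazim EC90, atrazine EC90 and the solvent control, with 1 dot per array and a line at the group mean. In every panel the carbendazim EC90 arrays lie apart from the solvent control arrays, which is no further support because this contrast selected the members. Peptidase inhibitor 16 lies at 4.27 to 4.69 at carbendazim EC90.

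Carbendazim EC90 shares 1 slide with the solvent control (2 treated arrays and 1 control array). Under the slide block 2 of its 14 calls held. In 3 of the 14, P2_C11, P2_A2 and P1_C3, the call held without any single array of either group. Omission of each of the 6 arrays in turn left 5 to 9 members called, the fewest without carbendazim EC90 3. Over 40 arrays with the slide as a block, 12 members were called at EC90 (2.61% of all transcripts), and 10 of them were among the 53 called over 40 arrays without it.

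Carbendazim EC90 was also set against atrazine EC90, at the matching effect on reproduction. In this contrast 6 members were called, 2 higher and 4 lower (1.74%, against 2.8% of all transcripts). Over 40 arrays there were 18 (6.57% of all) and over 39 arrays 22 (7.54% of all). Cathepsin b (P10_C4), a lysosomal cysteine protease, read 11.98, 12.40 and 12.32 at carbendazim EC90, against 11.90, 10.91 and 11.34 at atrazine EC90. Every carbendazim array was above every atrazine array, a 1.8-fold change of 0.85 (adjusted p = 0.0411). Its deviations followed those of Contig14, a non-member without a name (r = 0.95). Against the solvent control (11.37, 11.29 and 11.64) the change of cathepsin b was 0.80 with an adjusted p of 0.0511 over 42 arrays, 0.0177 over 40, 0.082 over 39 and 0.291 over 40 with the slide as a block. Carbendazim EC90 and atrazine EC90 share no slide, so the pesticide and the slide cannot be told apart. A slide block left 0 of the 6 called.

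The muscle and cytoskeleton list made up the largest named group, and none of its 29 members was called in any contrast over 42 arrays. At an unadjusted p under 0.05, 12 of the 29 passed at carbendazim EC90, 8 higher and 4 lower (16.8% of all transcripts passed), with a median change of 0.24 beside 0.03 for all transcripts. Over 40 arrays 10 of the 29 were called there, 7 higher and 3 lower (34.5%, beside 13.9% of all transcripts). At EC10 the calls over 40 arrays were 4 higher and 4 lower (27.6%, beside 4.35% of all transcripts), at EC20 4 and 4 (27.6%, beside 5.7%) and at EC50 6 and 4 (34.5%, beside 6.67%). Over 39 arrays the list kept 0 calls at EC10 and EC50, 1 at EC20 and 2 at EC90, both higher. These contrasts share the same solvent control arrays, and so do the atrazine ones. The methods' t-test gave 11 of the 29 at carbendazim EC90 at an unadjusted p under 0.05 (17.2% of all transcripts) and 0 after adjustment. Named members come from transcripts that the study had selected as changed on these arrays. Shares above those of all transcripts are therefore no independent evidence of change. Over 40 arrays at carbendazim EC50, 14.3% of the 42 names outside the lists were called, against 5.88% of the 238 members without a name. At EC10 these shares were 4.76% and 3.36%, at EC20 14.3% and 3.78%, and at EC90 they were close, at 14.3% and 13.0%. The 3 lower ones over 40 arrays at EC90 were myosin regulatory light chain, muscle actin and tropomyosin, the protein that covers actin at rest. The 7 higher ones were beta tubulin, calponin transgelin, 3 intermediate filament proteins and 2 probes named actin. Actins and intermediate filaments are multigene families, and probes may share signal between close copies, so that the single member behind a change is uncertain.

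Beta tubulin (P5_D7), the subunit of microtubules that carbendazim binds, read 10.93, 11.17 and 11.24 at carbendazim EC90, against 9.75, 10.26 and 10.57 in the solvent control. All treated arrays lay above all controls. The change of 0.92 ± 0.31 had an adjusted p of 0.0806 over 42 arrays, 0.00635 over 40 and 0.0194 over 39. Within the shared slide the difference was 1.34, and the adjusted p was 0.0394 with the slide as a block over 40 arrays. At EC10, EC20 and EC50 the group means of beta tubulin were 10.57, 10.35 and 10.66, below the 11.11 of EC90, and in the atrazine groups they lay between 10.40 and 10.53. The other tubulin of the library, tubulin beta-2b chain-like (P8_B9), changed by 0.34 at EC90 and was not called over 42 or over 40 arrays (adjusted p = 0.543 and 0.272).

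The cytoplasmic intermediate filament protein (P5_C11) read 6.73, 6.75 and 6.91 at carbendazim EC90, against 5.70, 5.50 and 6.25 in the solvent control. The groups did not overlap, and the change of 0.98 had an adjusted p of 0.265 over 42 arrays, 0.000337 over 40 and 0.00498 over 39. At atrazine EC90 it read 5.92, 5.88 and 5.86, so that carbendazim EC90 was higher by 0.91 (adjusted p = 0.000988 over 40 arrays). The scan that stood apart gave 3.87 and 3.70, the lowest readings of this transcript. Lombricine kinase (P2_E2), the phosphagen kinase by which annelids buffer ATP, read 15.10, 15.29 and 15.05 at carbendazim EC90, against 14.29, 14.45 and 14.64. Its change of 0.69 had an adjusted p of 0.21 over 42 arrays, 0.000809 over 40 and 0.0043 over 39. The group means of lombricine kinase were 14.81, 14.90, 14.95 and 15.15 along the carbendazim series, all above the 14.46 of the solvent control.

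Myosin regulatory light chain (P2_D8), which sets the activity of the muscle motor, read 15.10, 15.42 and 15.27 at carbendazim EC90, against 15.73, 16.60 and 15.65 in the solvent control. The change of -0.73 was called over 40 arrays (adjusted p = 0.00474) and not over 42 (0.265) or 39 (0.0681). Solvent control 2 held the highest value outside the scan that stood apart, which read 16.96 and 17.25. All 8 atrazine and carbendazim groups averaged below the solvent control, which itself averaged 15.99, against 15.30 in the water control. Muscle actin (P4_B6) behaved alike, at 13.52, 13.97 and 14.29 at carbendazim EC50, against 14.97, 15.47 and 14.72, a change of -1.13. It was called over 40 arrays (adjusted p = 0.00451) and not over 42 (0.179) or 39 (0.0582). For both, solvent control 2 was the highest array of its group.

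**Figure D5:**
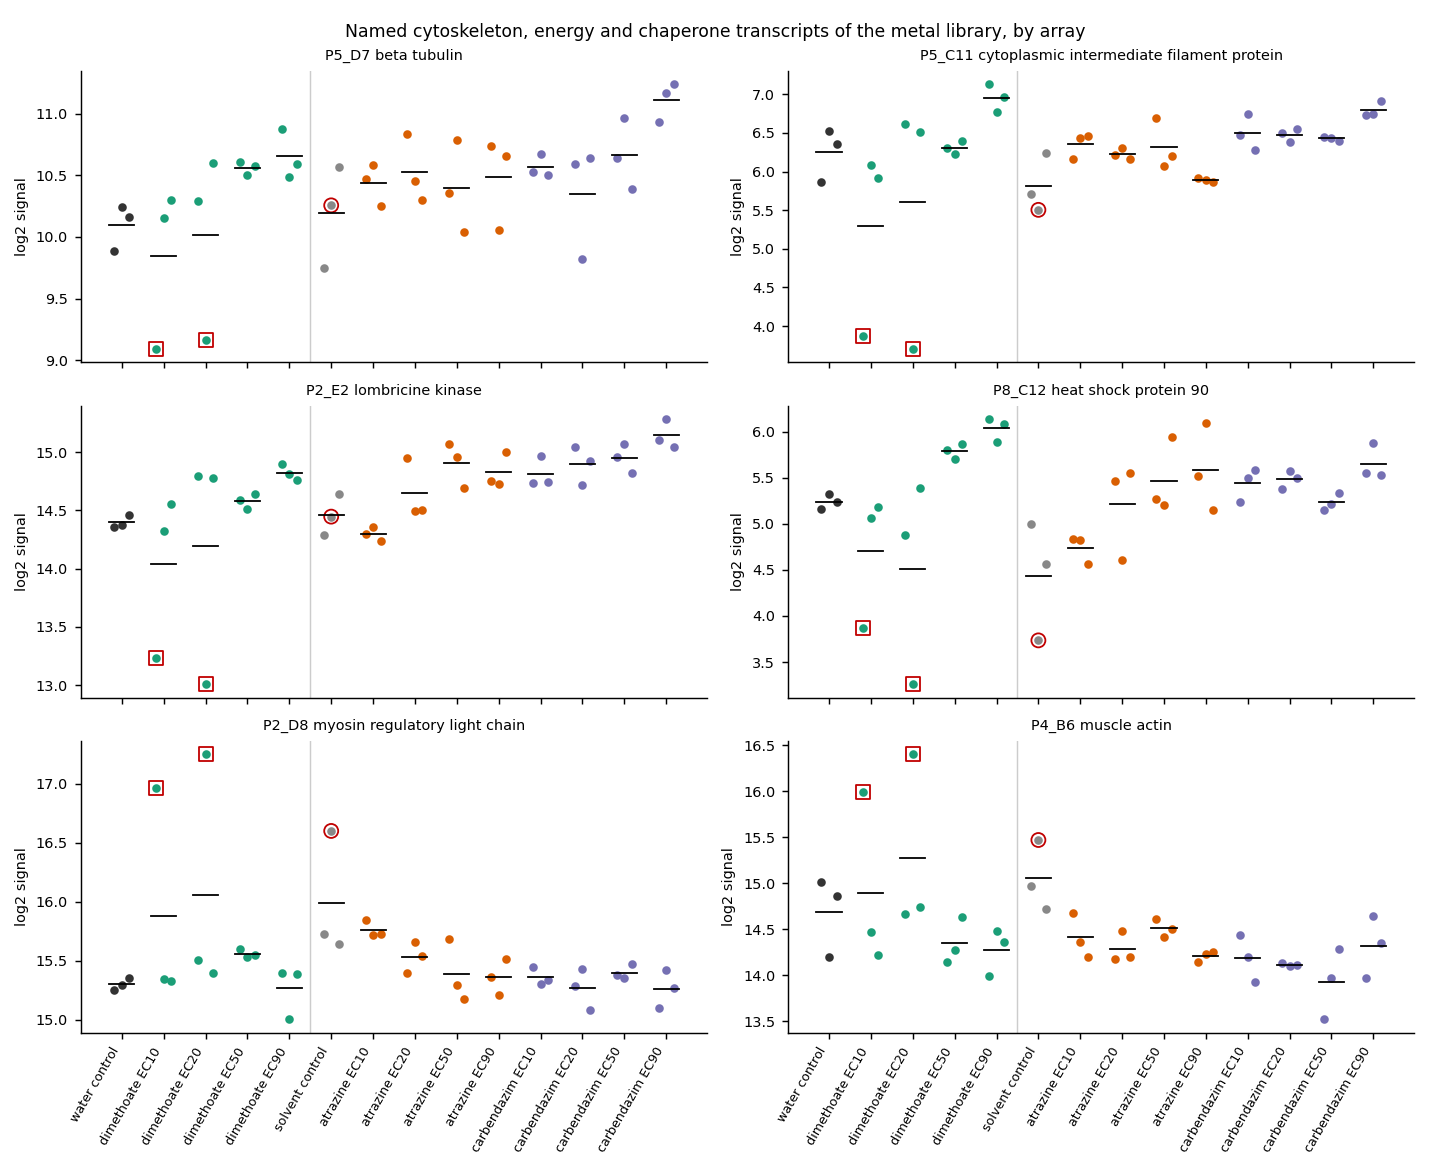
Normalised log2 signal of 6 named members in the 14 groups, with 1 dot per array and a line at the group mean. Squares mark the scan that stood apart and circles solvent control 2; beta tubulin is highest at carbendazim EC90 (10.93 to 11.24), and the marked arrays are the lowest for the intermediate filament protein and the highest for the myosin regulatory light chain.

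Among the 6 chaperones, HSP90 alone was called over 40 arrays without a slide block. It read 5.55, 5.88 and 5.53 at carbendazim EC90, against 5.00, 3.73 and 4.57 in the solvent control, where 2 of 3 arrays were well above background. The arrays did not overlap, and the change of 1.22 had an adjusted p of 0.0531 over 42 arrays, 0.00205 over 40 and 0.0291 over 39. Within the shared slide the difference was 0.54. At carbendazim EC10 and EC20 and at atrazine EC90 it was called over 40 arrays (adjusted p = 0.0292, 0.0218 and 0.0337) and at none of them over 39 (0.276, 0.22 and 0.437). The solvent control averaged 4.43 and the water control 5.24. Over 40 arrays with the slide as a block, atrazine EC20 also called HSP90 (adjusted p = 0.0182) and the 10 kDa heat shock protein (P2_H11, adjusted p = 0.0428), a partner of mitochondrial protein folding. With the block over 42 arrays the change of P2_H11 was -0.57. Solvent control 2 is the only solvent array on a slide with atrazine EC20. It was the lowest solvent array of HSP90 and the highest of P2_H11. P2_H11 read 9.93, 10.72 and 9.89 in the solvent control, against 10.09, 10.12 and 9.95 at atrazine EC20. Both block calls therefore lean on that array.

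Of the 12 ribosomal and the 10 respiratory members none was called in any contrast over 42 arrays. At carbendazim EC90, 1 ribosomal and 2 respiratory members had an unadjusted p under 0.05 (16.8% of all transcripts did), and the methods' t-test gave 2 of each at that threshold (17.2% of all) and 0 after adjustment. Over 40 arrays 2 of the 10 respiratory members were called at EC50 and at EC90 each (20.0%, against 6.67% and 13.9% of all transcripts), 1 higher and 1 lower. At atrazine EC90 2 of the 12 ribosomal members were called over 40 arrays, both lower (16.7%, against 2.51% of all). Over 39 arrays 1 of these calls remained, that of a respiratory member at carbendazim EC90. Names came from transcripts selected as changed on these arrays, which limits the shares of both lists. Ribosomal protein s16 (P3_D4), of the small subunit, read 14.74, 14.92 and 14.86 at carbendazim EC90, against 15.56, 15.59 and 15.22 in the solvent control, a change of -0.62 that was called over 40 arrays (adjusted p = 0.0148) and not over 39 (0.0777). A further probe named ribosomal protein s16 (P1_E6) averaged 14.54 at EC90, against 14.70 in the solvent control, a change of -0.16 that was not called over 40 arrays (adjusted p = 0.347). The NADH:ubiquinone oxidoreductase ESSS subunit (P5_F9), of the first complex of the respiratory chain, read 10.38, 10.37 and 10.31, against 10.66, 10.81 and 10.90. All treated arrays lay below the controls, and its change of -0.44 had an adjusted p of 0.0116 over 40 arrays and 0.043 over 39. The cytochrome c oxidase subunit of the same chain (P4_G4) changed by 0.70, opposite in sign (adjusted p = 0.0185 over 40 arrays and 0.117 over 39).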

How the data were processed

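Per the file headers and the submitters' processing notes, each array was scanned in 1 colour (Cy3) and read with Agilent Feature Extraction 10.5.1.1, and the authors deposited its processed intensity per spot, already background-subtracted. Non-control spots (15208 per array, 421 to 1070 flagged as outliers and left out) were averaged per sequence name, turned to log2 and brought to a common level, each array by its median distance (-1.27 to 0.53) to the transcript medians. Protein names came from a supplementary list of the study and were tied to sequences by the list's 12 log2 ratios, used for matching only. Each of the 225 names fitted 1 sequence within 0.01. Differences were tested with limma 3.58.1 in R 4.3.3 (package data.table, version 1.17.8) on the means of 14 groups. The fit had 28 residual degrees of freedom, and its prior added 3.92. P-values were adjusted over 1035 transcripts by Benjamini-Hochberg. Tables and plots used Python 3.11.15, numpy 2.4.6, pandas 2.3.3 and matplotlib 3.10.9. The methods' t-test ran on the same values. The fit was tested on simulated data.

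The members and lists were chosen with earlier results of these data known. Named in the text were the called members of each contrast (up to 10 per direction), the member with the smallest p where none was called, the 5 with the widest span of group means, members with a protein name by list, and the closest non-member of each called one. Alternatives were scaling by the 75th percentile, quantile normalization, normexp background correction (offset 50), spots averaged as log2 values, a filter on dim transcripts, the slide as a fixed or random block, a replicate block, a fit of only the 2 groups, omission of single arrays and omission of the scan that stood apart. Omission of that scan with the slide as a block, and with solvent control 2 omitted, were chosen after seeing the data. No column of samples outside the series was used (0). Sequences were not used here.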

Additional observations from a re-analysis of the deposited data

Results flagged for a closer look

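Carbendazim EC90 and atrazine EC90 share the solvent control, and the difference between them was tested directly for every transcript with limma. For 6 members (1.74%, against 2.8% of all transcripts) the groups differed in this test. The groups share no slide, so pesticide and slide cannot be told apart, and a slide block left 0 of the 6 called. Peptidase inhibitor 16 (P2_C11) changed by -2.35 on the log2 scale, lower at carbendazim EC90 (adjusted p = 0.00231), P9_D12 by -1.72 (adjusted p = 0.0208), P4_G7 by -1.43 (adjusted p = 0.00977) and P2_A2 by -0.88 (adjusted p = 0.0184). Cathepsin b (P10_C4) was higher at carbendazim EC90 by 0.85 (adjusted p = 0.0411) and P5_G6 by 0.69 (adjusted p = 0.0411). All 3 arrays per group of each of these members lay apart from the 3 of the other group. As the same test selected these members, that separation is no further support. Without any single array of either group the call held for 1 of the 6, peptidase inhibitor 16.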

How the results depend on the processing

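By the methods' t-test at an unadjusted p under 0.05, 10, 11, 69 and 56 metal library transcripts passed at dimethoate EC10, EC20, EC50 and EC90. Along atrazine 14, 8, 16 and 30 passed, and along carbendazim 52, 65, 65 and 57. In the solvent against the water control 62 passed, and 50 in carbendazim EC90 against atrazine EC90. Of all transcripts 2.8%, 1.93% and 16.7% passed at dimethoate EC10, EC20 and EC90 and 5.8%, 2.8%, 3.57% and 7.54% along atrazine. Along carbendazim 11.2%, 14.3%, 15.7% and 17.2% passed. No share is given for dimethoate EC50, the solvent control or carbendazim EC90 against atrazine EC90. The counts below stand without that share here and describe the processing only. After adjustment the methods' t-test gave 0 at dimethoate EC50, 1 at dimethoate EC90, 2 at carbendazim EC10 and EC20 each, and 0 at carbendazim EC90 and in both remaining contrasts. A fit of only the 2 groups gave 1 at dimethoate EC10, 2 at dimethoate EC50, carbendazim EC10 and EC50 each, 8 at carbendazim EC90 and 2 against atrazine EC90. Without the scan that stood apart the counts were 13 at dimethoate EC90, 12 at atrazine EC90, 20, 24, 33 and 53 along the carbendazim series, 16 in the solvent control and 18 against atrazine EC90. Without solvent control 2 as well they were 7 and 14 at dimethoate EC50 and EC90, 2, 2, 1 and 29 along the carbendazim series and 22 against atrazine EC90. Omission of single arrays gave 0 to 1 at dimethoate EC20, 0 to 5 at EC50 and 1 to 11 at EC90, 0 to 1, 0 to 7 and 0 to 3 at atrazine EC20, EC50 and EC90, 0 to 1, 0 to 2, 0 to 1 and 5 to 9 along the carbendazim series, 0 to 6 in the solvent control and 1 to 7 against atrazine EC90. The median change at atrazine EC50 then lay between 0.013 and 0.17. Under the slide block there were 2 at dimethoate EC50, 1 at EC90, 1 at atrazine EC20, 3 at carbendazim EC90 and 0 in both remaining contrasts. With that block and without the scan there were 19 at atrazine EC20, 2 at atrazine EC50, 1 at carbendazim EC50 and 0 in the solvent control. Quantile normalization gave 2 at dimethoate EC90, carbendazim EC10 and EC20 each, 5 in the solvent control and 10 against atrazine EC90. Normexp correction gave 2 at dimethoate EC50 and 1 at carbendazim EC10, and a median of 0.014 at atrazine EC50. Leaving out dim transcripts (917 kept, 303 of them members) gave 2 at dimethoate EC90 and a median of -0.040 at dimethoate EC10. Scaling by the 75th percentile gave 10 in the solvent control, and medians of -0.023 and -0.25 at dimethoate EC10 and EC50, 0.17, 0.38 and 0.22 at atrazine EC20, EC50 and EC90, 0.15, 0.27 and 0.23 at carbendazim EC10, EC20 and EC50, and -0.32 in the solvent control. A replicate block gave 5 in the solvent control and moved no other count by over 1.5 times. The vessel numbers share only a number: in no contrast were all 3 correlations of same-numbered arrays above 0.1 (-0.28 to 0.29). Of 31 calls of single members, 27 stayed with 75th percentile scaling, 23 with quantile normalization, 15 with normexp correction, 4 with the slide block, 29 with the replicate block, 31 without the scan, 28 without solvent control 2 as well, 11 without the scan and with the slide block, 10 in a fit of only the 2 groups and 0 by the methods' t-test after adjustment. Only transketolase at carbendazim EC90 changed sign, to -0.065 with normexp correction (adjusted p = 0.763). The cause of these differences was not tested. In dim probes the background limits the size of a change.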
